A study of Homo sapiens with 9 samples.

Results

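CAL-1 is an established human cell line that grew out of a BPDCN, the blastic neoplasm of plasmacytoid dendritic cells, a blood cancer. The account below covers its baseline transcriptome: the 3 RNA sequencing libraries titled NTC, the control group, of 9 libraries in the series. They were chosen by their titles, and no measured value entered the choice. The other 6 libraries come from cells in which KHSRP was reduced by CRISPR interference, and their values are not used here. All 3 control libraries share the line CAL-1, the genotype label WT, a single batch, column-purified total RNA (NucleoSpin RNA Plus XS) and library chemistry named only as Roche Kapa. The sources used here do not say what NTC abbreviates or whether these control cells carry the interference machinery. Nothing in the labels says that the replicates were separate cultures, so the spread between them may be technical.

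Plasmacytoid dendritic cells are the immune cells best known for releasing large amounts of type I interferon when they sense viral nucleic acids. The endosomal receptors TLR7, for RNA, and TLR9, for DNA, do the sensing, and the factor IRF7 drives the interferon genes. TCF4, also called E2-2, is the basic helix-loop-helix factor on which the identity of these cells depends, together with IRF8, SPIB and BCL11A. Clinically the tumour is recognised by surface CD123 (the protein of IL3RA), CD4 and CD56 (NCAM1), with CD303 (CLEC4C) and TCL1 (TCL1A) as markers of the lineage.

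Levels were given as TPM, a read count divided by transcript length and scaled so that each library sums to 1000000. Because TPM is per length, it allows one gene to be set against another within a library. A symbol was called present when it reached 1 TPM in all 3 libraries. Levels are listed in the order of replicates 1, 2 and 3, and summaries are the mean ± SD (n = 3). With a single group there was no comparison to test.

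Of 25540 symbols, 13993, 14349 and 14462 were above 0 in the 3 libraries, and 10167 (39.8%) were at 0 in every one. Present symbols numbered 10699, which is 41.9% of all symbols; among 19109 protein coding symbols 9888 were present, or 51.7%. These shares are the background against which each gene list below is set. The lists were chosen with earlier results of these data known, so a share above or below the background may owe to that choice. TPM does not keep read totals, so the depth in reads is unknown. The spacing of low values put replicate 2 at 1.48 times and replicate 3 at 1.83 times the depth of replicate 1. KHSRP, the gene targeted in the other groups, was at 253, 244 and 216 TPM in these controls, and SLC23A1, the vitamin C transporter gene named in the series title, was at 1.33, 1.54 and 1.56 TPM. All 33 housekeeping genes of the control list were present.

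Symbols of some genome regions were low or at 0, and this touches the markers. The pseudoautosomal regions are stretches that chromosomes X and Y share, and IL3RA lies in one of them. Of 18 protein coding pseudoautosomal symbols, 16 were listed at 0 in all 3 libraries and none was present. The remaining pair, CD99 and SPRY3, did not exceed 0.0149 TPM. The symbols at 0 included SLC25A6, a mitochondrial ADP/ATP carrier, and VAMP7, a vesicle fusion protein, which nearly all cells express, and also the cytokine receptor genes CSF2RA, CRLF2 and IL9R. In the GENCODE 29 annotation on GRCh38, IL3RA spans positions 1336616 to 1382689 of chromosome X, with a copy on Y. The listed 0 of IL3RA therefore cannot be read as absence of its transcript.

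Symbols of other sets were low in part. In the major histocompatibility complex window, from TRIM27 to KIFC1 (chromosome 6, positions 28903002 to 33409924), 84 of 160 protein coding symbols were present (52.5%), close to the 52.0% of symbols outside the special sets. Their median among present symbols was 8.22 TPM, against 24.7 TPM outside. Only RPS18 and TUBB reached 100 TPM there, 1.25% of the window against 8.00% outside. DDX39B, an RNA helicase of the splicing and export machinery, was at 0.00781, 0.0106 and 0.00641 TPM. The class I heavy chain genes HLA-B, at 36.9, 36.5 and 36.6 TPM, and HLA-C, at 40.5, 38.6 and 37.7 TPM, were far below their light chain partner B2M, at 719, 780.0 and 734 TPM, which lies on another chromosome. The class II alpha chain gene HLA-DRA was at 70.2, 71.8 and 69.4 TPM, against 1544, 1529 and 1716 TPM for CD74, the class II invariant chain.

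In the leukocyte receptor complex window, from VSTM1 to NCR1 (chromosome 19, positions 54040825 to 54916140), 13 of 36 symbols were present, with a median of 12.4 TPM among them. Protein coding symbols that also have a read-through symbol, a joint name with a neighbour such as HOXA10-HOXA9, numbered 253 and were present in 34.0% of cases. Ribosomal protein genes in that set were low: RPS10 was at 6.00, 6.52 and 2.95 TPM, RPL17 was at 10.4, 10.7 and 8.88 TPM and RPL36A had a mean of 10.2 TPM. The 136 read-through symbols themselves did not exceed 0.743 TPM. The sources used here do not say how the authors handled reads with several matches or overlapping genes, and its part in these values was not tested.

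**Figure D1:**
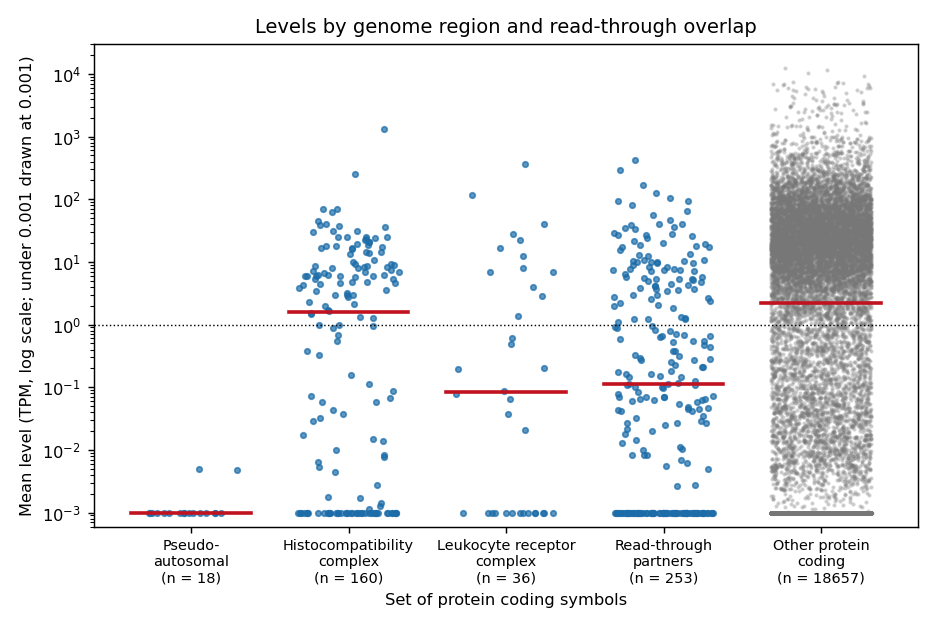
Mean level (TPM, log scale, values under 0.001 drawn at 0.001) of each protein coding symbol, by set; each point is 1 symbol, red lines are medians over all symbols of the set, and the dotted line marks 1 TPM. The 18 pseudoautosomal symbols all lie under the dotted line, and 2 of the 160 symbols of the histocompatibility complex reach 100 TPM.

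Of the 7 marker genes of the lineage 6 were present, and the exception was IL3RA. JCHAIN, the joining chain of polymeric antibodies and a gene that plasmacytoid dendritic cells share with plasma cells, was at 2613, 2979 and 2769 TPM. IRF8 was at 2356, 2284 and 2796 TPM. These levels gave ranks 59 and 67 among all symbols by mean level, between ribosomal protein, chaperone and cytoskeletal genes. Replicate 2 was highest for JCHAIN and replicate 3 for IRF8.

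TCL1A, a coactivator of the kinase AKT that is named after T cell leukemia, was at 798, 772 and 836 TPM, rank 164. TCF4 was at 188, 216 and 198 TPM, rank 699. Its SD over the libraries was 14.3 TPM around a mean of 201 TPM, and that of TCL1A was 32.3 TPM around 802 TPM. CLEC4C, the lectin receptor known as BDCA2, was at 58.99, 64.4 and 46.7 TPM, rank 2634. GZMB, the protease granzyme B, which plasmacytoid dendritic cells make without perforin, was at 47.7, 46.8 and 28.98 TPM, rank 3442. For CLEC4C and GZMB replicate 3 was the lowest library, and for GZMB it stood well below the other 2. The perforin gene PRF1 was listed at 0 in all 3 libraries.

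**Figure D2:**
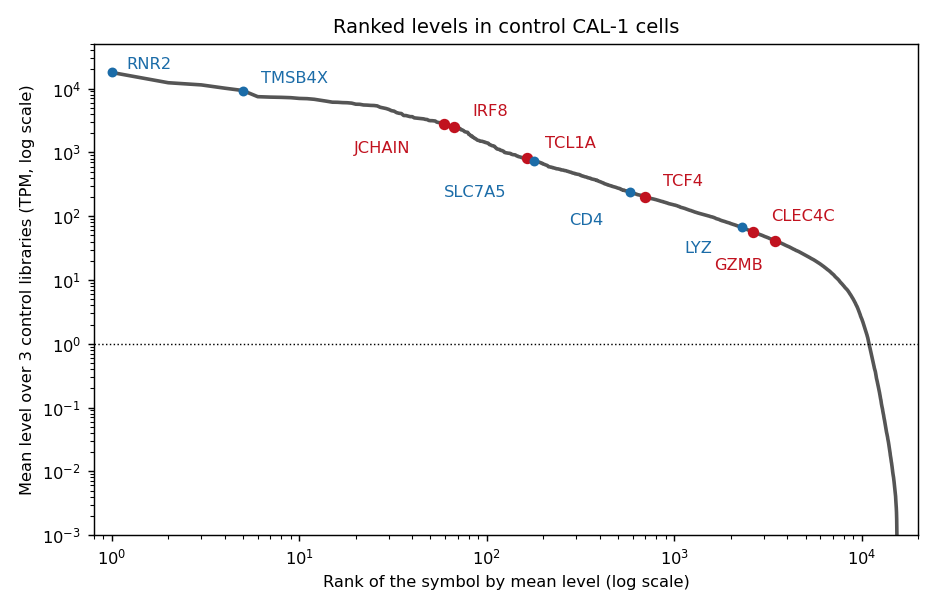
Mean level (TPM, log scale) of each symbol above 0 against its rank (log scale); red points are 6 of the 7 marker genes (IL3RA, listed at 0, cannot be drawn), blue points are other genes named in the text, and the dotted line marks 1 TPM. JCHAIN and IRF8 lie at ranks 59 and 67, and GZMB at rank 3442.

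Windows before a RefSeq start of each of 6 marker genes were searched for the E-box CANNTG. TCF4 belongs to the E proteins, which bind this motif. The core promoter element TATAAA and a form of the interferon-stimulated response element were searched for as well. The windows of JCHAIN, CLEC4C, TCF4 and TCL1A held 1 match each, and those of IRF8 and GZMB held none. By the GENCODE positions, the windows of JCHAIN, CLEC4C, TCF4 and IRF8 lie inside the span of the gene. Those of TCL1A and GZMB overlap its upstream end. Which start these cells use was not tested, so a window with or without a match may not be the promoter in use. The 3 windows shown were chosen because they hold a match. Each run is the 100 bases before the RefSeq start, from GRCh38.p14, read 5′ to 3′ on the gene's minus strand, with matches to CANNTG or TATAAA in capitals. The JCHAIN window is chr4:70666509-70666608, the CLEC4C window chr12:7747376-7747475 and the TCL1A window chr14:95714126-95714225.
JCHAIN: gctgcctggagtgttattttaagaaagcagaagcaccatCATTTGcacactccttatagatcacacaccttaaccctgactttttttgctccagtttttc
CLEC4C: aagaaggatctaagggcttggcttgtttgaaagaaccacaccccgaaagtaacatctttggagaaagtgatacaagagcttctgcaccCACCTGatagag
TCL1A: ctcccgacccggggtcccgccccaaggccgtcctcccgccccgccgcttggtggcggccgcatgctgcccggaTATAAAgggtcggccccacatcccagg
CANNTG reads the same on both strands, and it was in 15 of the 40 windows matched for the plasmacytoid dendritic cell list below, or 37.5%, against 32.4% of 27305 RefSeq promoter windows of the same length. Among 74 windows matched for the 100 most abundant symbols it was in 17.6%. TATAAA, counted on both strands, was in 5 of the 40 windows, against 5.34% of all windows, and the interferon-stimulated response element, also on both strands, in 1 of the 40, against 1.22%. These matches are descriptions of letters and no binding was measured.

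A wider list of 50 genes known from plasmacytoid dendritic cells was then read out. Of these, 39 were present (78.0%, against 51.7% of protein coding symbols), 31 reached 10 TPM and 13 reached 100 TPM. Their median was 26.1 TPM, against 2.02 TPM over all protein coding symbols. The list was chosen with earlier results of these data known, so these differences describe the list and test nothing. Below 1 TPM in every library were 11 genes, of which IL3RA, ASIP and PTGDS were listed at 0. Of the 50 genes 4 lie in the region and read-through sets described above (IL3RA, LILRA4, LILRB4 and LAIR1); of the other 46, 37 were present.

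Among the transcription factors of the list, IRF8 and TCF4 were followed by IRF4, a relative of IRF8, at 73.04, 76.6 and 64.2 TPM, and RUNX2, a factor tied to the egress of these cells from bone marrow, at 58.3, 61.6 and 82.4 TPM. SPIB, an ETS factor, was at 57.5, 55.8 and 41.5 TPM and ZEB2, a zinc finger repressor, at 31.2, 39.2 and 32.98 TPM. BCL11A was at 19.8, 22.6 and 17.7 TPM, IRF7 at 15.7, 14.2 and 10.9 TPM and CUX2 at 6.62, 6.62 and 6.30 TPM. Replicate 3 was the highest library for RUNX2 and the lowest for SPIB, BCL11A and IRF7. Every factor of this group was present in each library.

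Of the other members at 100 TPM or more, PLAC8, a small cysteine-rich protein, was at 561, 593 and 630.4 TPM, UGCG, a glucosylceramide synthase, at 506, 552 and 651 TPM, and ALOX5AP, the activator of leukotriene synthesis, at 259.7, 259 and 278 TPM. PTPRS, a receptor phosphatase of the lineage, was at 257, 257 and 280.4 TPM, and SLC15A4, an endosomal peptide transporter needed for TLR7 and TLR9 signals, at 231, 241 and 299 TPM. Replicate 3 was highest for each of these 5 genes. MZB1, a chaperone cofactor of the endoplasmic reticulum, was at 199, 209.7 and 229 TPM, BLNK, an adaptor for receptor-linked kinases, at 140.1, 159.8 and 167 TPM, and LAMP5, an endosomal membrane protein, at 104, 107 and 115 TPM. CCDC50, a coiled-coil protein, had a mean of 143 TPM.

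The low members included surface receptors and secreted proteins. LILRA4, the receptor ILT7 that is used as a defining surface marker, was at 0.619, 0.710 and 0.522 TPM, below 1 TPM in each library, and it lies in the leukocyte receptor complex window. PTCRA, the pre-T cell receptor alpha chain, was at 0.763, 0.658 and 0.152 TPM, and SERPINF1, a secreted serpin, at 0.233, 0.551 and 0.318 TPM. NRP1, the receptor known as BDCA4, was present at 19.4, 19.9 and 13.2 TPM and CXCR3, a chemokine receptor, at 26.98, 22.5 and 17.6 TPM, with replicate 3 lowest for both. PROC, the anticoagulant protein C, was at 0.450, 0.222 and 0 TPM, and PACSIN1, EPHB1, GPM6B and SHD each had a mean under 0.02 TPM.

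**Figure D3:**
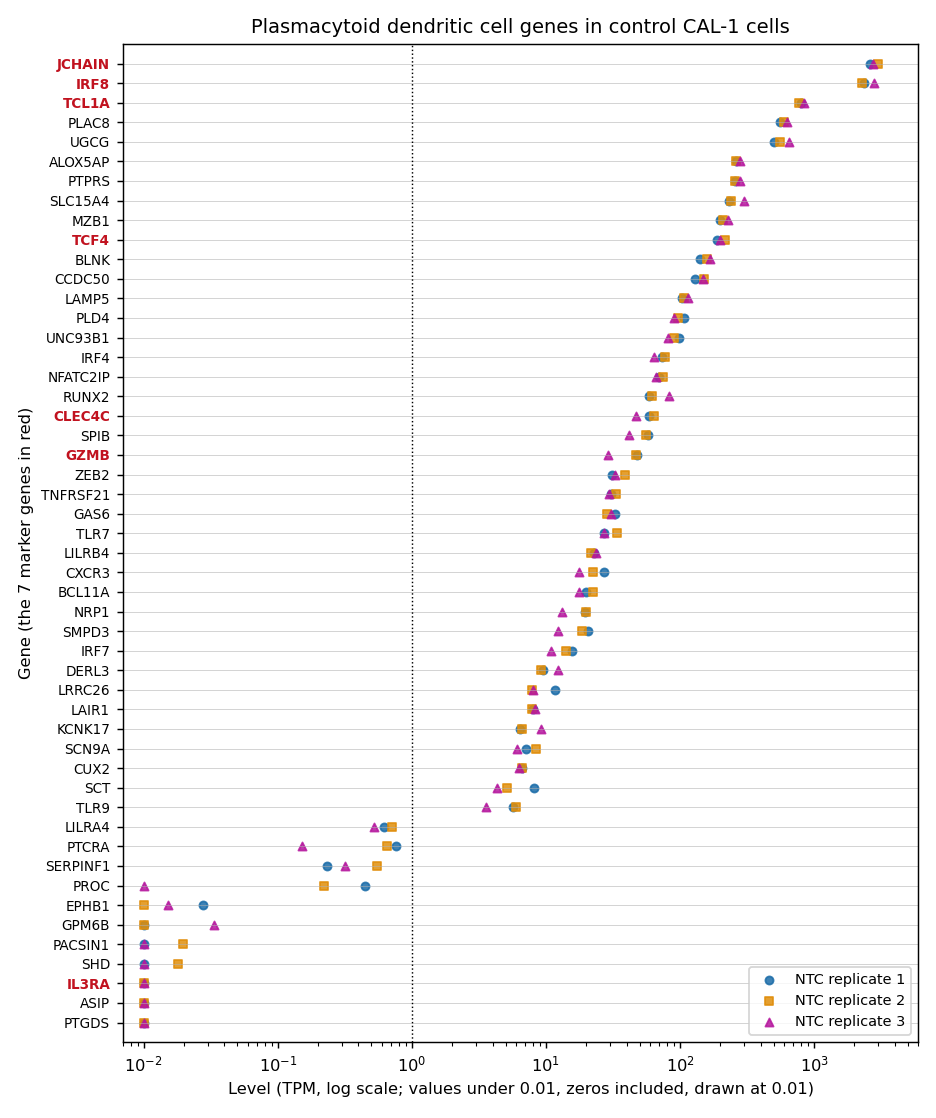
Level (TPM, log scale, values under 0.01 drawn at 0.01) of the 50 listed plasmacytoid dendritic cell genes in each of the 3 control libraries, sorted by mean; the 7 marker genes are in red and the dotted line marks 1 TPM. The 39 present genes lie to the right of the dotted line in every library, and IL3RA is among the 3 genes listed at 0.

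The most abundant of the listed symbols were mostly those of the protein synthesis machinery. A name search for mitochondrially encoded symbols matched 10, which held 0.0158% of TPM, and RNR2 was not among them. The most abundant of the 10 was MTRNR2L2, a nuclear MT-RNR2-like gene, with a mean of 134 TPM. That share is therefore no measure of mitochondrially encoded RNA. The ranks and shares below are therefore of the listed symbols, and the part of mitochondrial mRNAs in them is uncertain. The top symbol, RNR2, which is a mitochondrial ribosomal RNA, held 1.79% of all TPM, the top 10 held 9.74%, the top 100 held 39.4% ± 0.750 and the top 1000 held 70.6%. Of the 100 most abundant symbols of each library, 96 were the same in all 3. Cytosolic ribosomal protein symbols, 88 in number, held 26.8%, 26.0% and 26.7% of TPM (26.5% ± 0.454). They made up 7 of the top 10, 23 of the top 30 and 56 of the top 100.

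The 30 symbols with the highest means ran from RNR2, at 17740.3, 19292 and 16629 TPM, to RPL7A, at 4731, 4567 and 4844 TPM. The 7 that are not ribosomal protein genes were RNR2, the actin sequestering peptide TMSB4X, ACTB, the chromatin-associated peptide PTMA, the elongation factor EEF1A1, ACTG1 and the glycolytic enzyme GAPDH. TMSB4X was at 8055, 8974 and 10927 TPM and ACTB at 6719.6, 6573 and 8296 TPM, and replicate 3 was the highest library for both. The ribosomal protein genes among the 30 included, in falling order, RPS12, RPL37A, RPL38, RPL39, RPL7, RPLP1, RPS6, RPL23, RPS21, RPS27, RPS2, RPS28, RPL30, RPS15A, RPL12, RPS25, RPL35, RPLP0, RPL24, RPL35A and RPL7A. RPS12, the highest of them, was at 12978, 12517 and 11547 TPM, and their order beyond the first few depended on the library. Many of these genes have near-identical processed pseudogenes, so their levels depend on how shared reads were assigned.

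Other broad families were small beside the ribosomal proteins. Actins, tubulins, thymosins and actin binding proteins held 4.16% ± 0.387 of TPM, the nuclear genes of the respiratory chain and ATP synthase 3.15% ± 0.0619, and translation factors 2.42% ± 0.0525. Heat shock proteins and chaperonins held 2.35% ± 0.124, splicing factors and hnRNP proteins 2.08% ± 0.0573, and glycolytic enzymes 1.36% ± 0.0507. Apart from the cytoskeletal family, in which replicate 3 was the highest at 4.60%, these shares differed little between libraries. A set of small RNAs (small nuclear, nucleolar and others) was the exception, with 1.42% in replicate 1, 0.417% in replicate 2 and 0.316% in replicate 3. Its most abundant member was RN7SL2, a signal recognition particle RNA and neither small nuclear nor nucleolar, whose levels are given below.

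Markers of 17 other cell types were read out as well. Counted once each, 38 of 205 matched symbols were present (18.5%, against 51.7% of protein coding symbols), and 109 were listed at 0 in all 3 libraries. The lists of mast cells and basophils, erythroid cells, megakaryocytes, stem and progenitor cells, fibroblasts, endothelium, neurons and hepatocytes had no present member. In bulk RNA, fewer cells of a type and less RNA per cell cannot be told apart. The summed level of each of these 8 lists stayed below 1.5 TPM in every library. The defining markers KIT, GATA1, GATA2, HBB, PF4, MEIS1, COL1A2, CDH5 and ALB were listed at 0. HBA1 and HBA2, like other near-identical pairs, are uncertain at a listed 0, because shared reads may not have been counted.

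Of 17 T cell symbols, 1 was present: CD28, a costimulatory receptor, at 25.8, 29.2 and 26.5 TPM. The defining genes CD3D, CD247, CD8A, CD7, LCK and BCL11B were listed at 0 in all 3 libraries, and CD3E was at 0, 0.0338 and 0 TPM. The NK cell list had 2 of 16 present, the granule genes GNLY, at 6.05, 4.15 and 5.66 TPM, and NKG7, at 5.81, 4.78 and 3.81 TPM. KLRD1, EOMES, TBX21, GZMA and GZMK were listed at 0. The T cell receptor and immunoglobulin constant region genes TRAC, TRBC1, TRBC2, IGHM, IGHD, IGKC, IGHG1 and IGHA1 were listed but matched no row. Their levels are therefore unknown, which limits the T cell, B cell and plasma cell lists.

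The B cell list had 5 of 17 present, and the surface marker gene CD22 was not among them. IGLL1, the lambda-like chain of the surrogate light chain of precursor B cells, was at 547, 485 and 596 TPM, and FCRLA, an intracellular Fc receptor-like protein, at 290.2, 274 and 255 TPM. VPREB1, the partner of IGLL1, was at 4.25, 2.53 and 3.91 TPM, PAX5, the B cell commitment factor, at 2.68, 2.96 and 3.41 TPM, and FCER2, the low-affinity IgE receptor CD23, at 1.92, 1.82 and 3.22 TPM. IGLL1 is close in sequence to IGLL5, at 306, 307 and 289 TPM, so how reads were split between them is uncertain. CD79A was at 0.820, 0.768 and 1.83 TPM, past 1 TPM in replicate 3 only, and CD22, EBF1, POU2AF1 and RAG2 were listed at 0. MS4A1, which encodes CD20, had a mean of 0.00337 TPM.

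In the plasma cell list 5 of 6 symbols were present (83.3%), a larger share than the 78.0% of the plasmacytoid dendritic cell list. XBP1, a factor of the secretory program, was at 78.02, 88.2 and 82.6 TPM and FKBP11, a secretory pathway isomerase, at 52.6, 61.4 and 59.9 TPM. TNFRSF17, the receptor BCMA, was at 7.11, 6.46 and 2.33 TPM, SLAMF7 at 4.87, 5.69 and 2.17 TPM, and PRDM1, the plasma cell factor BLIMP1, at 2.76, 2.88 and 1.55 TPM. Replicate 3 was lowest for these last 3 genes. SDC1, which encodes CD138, was at 0, 0.0402 and 0 TPM.

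Among the myeloid lists, monocytes and macrophages had 3 of 21 present: LYZ, lysozyme, at 72.7, 90.8 and 36.6 TPM, the lysosomal CD68, at 41.6, 38.4 and 38.6 TPM, and the factor CEBPB, at 13.4, 13.5 and 16.1 TPM. CD163, VCAN, FCN1, S100A8, S100A9, S100A12 and C1QA were listed at 0, and CD14 had a mean of 0.0609 TPM. The granulocyte list had 4 of 15, led by the protease CTSG, at 33.5, 36.2 and 44.98 TPM, and followed by CXCR2, PRG2 and CAMP. MPO, ELANE, PRTN3 and CEBPA, which accompany CTSG in neutrophil precursors, were listed at 0.

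Of the conventional dendritic cell list 10 of 17 symbols were present (58.8%), near the 51.7% of protein coding symbols. CD1C, a lipid antigen-presenting molecule, was at 221, 222 and 181 TPM, the receptor kinase FLT3 at 78.1, 91.1 and 141 TPM, and CD1E at 73.04, 83.9 and 83.9 TPM. ID2, an inhibitor of E proteins that favours the conventional lineage, was at 73.1, 68.8 and 72.3 TPM, below TCF4 in every library. FCGR2B, CADM1, FCER1A and CD1A followed, with means of 57.4, 57.05, 19.4 and 6.39 TPM. CLEC9A, XCR1, ZBTB46 and CD207 were listed at 0, while BATF3 had a mean of 0.163 TPM and ITGAX, which encodes CD11c, of 0.00713 TPM.

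AXL+ dendritic cells are a transitional type between the plasmacytoid and conventional forms. Of their symbols 5 of 9 were present (55.6%), near the 51.7% of protein coding symbols. AXL, a receptor kinase, was at 60.5, 58.4 and 50.9 TPM, SIGLEC6, a sialic acid receptor, at 40.9, 43.5 and 55.6 TPM, and DAB2, an endocytic adaptor, at 34.1, 35.5 and 32.9 TPM. For AXL replicate 3 was lowest, and for SIGLEC6 it was highest. KLF4 was at 8.70, 8.68 and 5.23 TPM and SIGLEC1 at 1.17, 1.55 and 1.06 TPM, while CX3CR1 and CD5 stayed below 1 TPM and PPP1R14A and ADAM33 were listed at 0. The epithelial list had 3 of 10 present, MUC1, KRT8 and CLDN7, each with a mean under 3 TPM, and EPCAM, KRT18 and KRT19 were listed at 0.

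**Figure D4:**
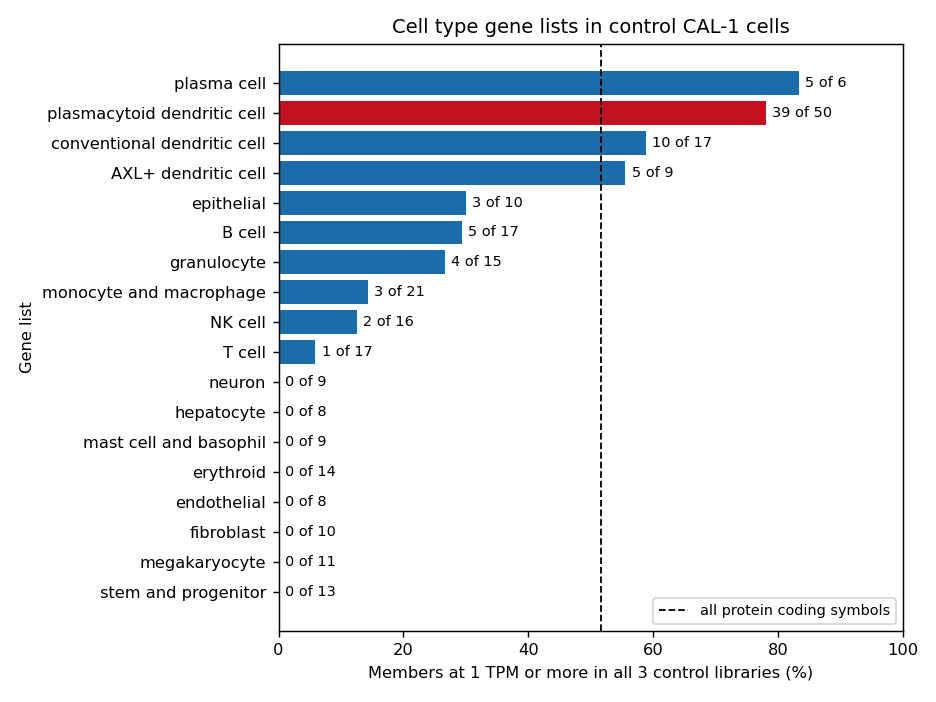
Share of listed members (%) at 1 TPM or more in all 3 control libraries, for the plasmacytoid dendritic cell list (red) and 17 lists of other cell types (blue), with the counts beside each bar; the dashed line is the share over all protein coding symbols, 51.7%. The plasma cell list has the largest share, at 5 of 6, followed by the plasmacytoid list at 39 of 50. No member is present in 8 lists.

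Surface genes were taken from 8 lists of receptors, adhesion molecules and CD antigens. Among these is the list of pattern recognition receptors, which also holds intracellular sensors such as CGAS, so the counts are not of cell surface proteins alone. Of 385 symbols 178 were present (46.2%, against 51.7% of protein coding symbols), and 15 reached 100 TPM in every library. CD74 led, followed by SLC7A5, at 772, 717 and 692 TPM, and SLC3A2, at 452, 422 and 405 TPM, which together form a transporter of large neutral amino acids. BSG, the chaperone of lactate transporters, was at 513, 482 and 473 TPM, and FCER1G, the signaling chain of Fc and lectin receptors, at 496, 471 and 501 TPM. The ranges of BSG and FCER1G over the libraries overlapped, and those of all other neighbours in rank from CD74 down to CD37 did not.

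TFRC, the transferrin receptor, was at 276, 304 and 263 TPM. CD4, a coreceptor that also marks plasmacytoid dendritic cells, was at 231, 234 and 246 TPM, and BST2, the ligand of the inhibitory receptor ILT7, at 211, 208 and 223 TPM. The tetraspanins CD53, CD37, CD63 and CD81 had means of 189, 171, 145 and 85.2 TPM. CD164, CD48, ITGAL and CXCR4 had means of 162, 155, 145 and 120.3 TPM. The 20 most abundant surface genes ended with FLT3, LTK, CD81, ICAM2 and IFNGR1, whose order depended on the library. FLT3 varied most among them, with 78.1, 91.1 and 141 TPM and replicate 3 highest.

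NCAM1, which encodes the CD56 of the clinical definition, was at 70.9, 77.1 and 86.3 TPM. Other antigens raised as antibody or cell therapy targets in blood cancers were CD33, at 34.4, 32.05 and 31.4 TPM, CD38, at 28.7, 27.5 and 30.3 TPM, and CD70, with a mean of 31.3 TPM. CD47, the signal that restrains phagocytosis, had a mean of 45.6 TPM and CD44, the hyaluronan receptor, of 81.1 TPM. Of the 27 listed targets 13 were present (48.1%, against 51.7% of protein coding symbols). CD22, CD7, CCR4 and TIGIT were listed at 0, as was IL3RA with the limit given above. CLEC12A, MS4A1, TNFRSF8 and CD274 stayed below 1 TPM, and PTPRC, which encodes the pan-leukocyte CD45, was present at only 12.5, 16.03 and 16.9 TPM.

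Cytokine and growth factor receptors were mostly low, with 34 of 84 present (40.5%, against 51.7% of protein coding symbols). None was at 100 TPM in every library. LTK, a receptor kinase related to ALK, was at 92.6, 89.6 and 84.3 TPM, and IFNGR1, the interferon gamma receptor, at 76.2, 82.1 and 87.8 TPM. IL6R, TGFBR2 and IGF2R had means of 67.02, 47.3 and 41.9 TPM. The type I interferon receptor genes IFNAR1 and IFNAR2 were at 18.97, 21.3 and 18.5 TPM and 26.3, 29.5 and 27.2 TPM. CSF2RB, the beta chain that pairs with the IL3RA chain, was at 25.1, 25.4 and 23.4 TPM, while its partners IL3RA and CSF2RA lie in the pseudoautosomal region and were listed at 0. IL7R had a mean of 0.185 TPM, and KIT, IL2RA and EGFR were listed at 0.

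Of 52 chemokine and chemoattractant receptors 20 were present (38.5%, against 51.7% of protein coding symbols), led by CXCR4, the receptor for bone marrow homing. GPR183, a receptor for oxysterols, was at 63.9, 67.9 and 33.7 TPM and P2RY14, a receptor for UDP sugars, at 52.5, 61.2 and 46.7 TPM. CCR2 was at 11.1, 13.3 and 11.6 TPM, whereas CCR7, the lymph node homing receptor, had a mean of 0.247 TPM. Replicate 3 was the lowest for GPR183 and P2RY14. The TNF receptor superfamily had 16 of 27 present (59.3%), near that background. These were led by LTBR, the death receptor TNFRSF10B and TNFRSF1A, with means of 47.7, 40.2 and 40.1 TPM. CD40, the receptor through which T cells license dendritic cells, had a mean of 0.0262 TPM.

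Integrin and adhesion genes had 18 of 47 present (38.3%, against 51.7% of protein coding symbols). The alpha L chain gene ITGAL, at 139, 138 and 158 TPM, and its partner ITGB2, at 63.9, 61.8 and 67.8 TPM, form LFA-1, and ITGA4, at 66.5, 81.7 and 73.2 TPM, and ITGB7, at 91.8, 80.7 and 69.2 TPM, form a gut homing integrin. All 4 chains of these pairs were present in each library, with replicate 3 highest for ITGAL and ITGB2 and lowest for ITGB7. ITGAX and ITGAM, the alpha chains of myeloid cells, stayed low, with means of 0.00713 and 0.859 TPM. Of the Fc, lectin and paired receptors 25 of 56 were present (44.6%). Among the 56, 13 belong to the sets of regions and read-through symbols described above.

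Sensors of nucleic acids and microbes were present in 16 of 25 cases (64%, against 51.7% of protein coding symbols). CGAS, the sensor of cytosolic DNA, was at 51.1, 56.96 and 52.99 TPM, and EIF2AK2, the RNA-dependent kinase PKR, at 32.3, 35.95 and 31.8 TPM. TLR7, at 27.04, 34.2 and 27.3 TPM, was above TLR9, at 5.64, 6.03 and 3.59 TPM, in every library. TLR10, TLR4 and TLR1 had means of 9.24, 8.83 and 4.78 TPM, while TLR2 and TLR5 were listed at 0 and TLR8 had a mean of 0.0143 TPM. NLRP3, an inflammasome sensor, was at 27.5, 29.3 and 42.3 TPM, highest in replicate 3.

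Of 31 symbols listed for the pathway of TLR7 and TLR9, 29 were present (93.5%, against 51.7% of protein coding symbols). The chaperone HSP90B1 was at 1373, 1515 and 1331 TPM, and UNC93B1, the protein that carries these receptors to endosomes, at 97.5, 90.96 and 80.7 TPM. The kinases BTK and IRAK1 had means of 147 and 102 TPM, and the adaptor MYD88 of 41.8 TPM. CTSS, CTSB and PLD4, which act in endolysosomes, had means of 110.3, 72.5 and 97.9 TPM. The exceptions were the kinase IRAK2, listed at 0, and the protease CTSL, with a mean of 0.0156 TPM. IRF7 and IRF5, the interferon regulatory factors of the pathway, had means of 13.6 and 19.6 TPM.

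Transcripts of the products of that pathway were scarce in these libraries. Every interferon alpha symbol and every interferon lambda symbol of the list was at 0 in all 3 libraries, and IFNB1 had a mean of 0.0358 TPM. Of 77 cytokine and interferon symbols 18 were present (23.4%, against 51.7% of protein coding symbols). These were led by MIF, at 305, 269 and 273 TPM, and TGFB1, at 104, 90.4 and 86.5 TPM. TNF was at 17.9, 20.5 and 24.2 TPM and IL1B at 8.08, 8.52 and 16.6 TPM, both highest in replicate 3. TNF, LTA, LTB, TNFSF12 and TNFSF13, 5 of the 77 symbols, belong to the region and read-through sets described above, with the limit given there. The interferon alpha genes are near-identical to each other, so a listed 0 may also depend on how shared reads were assigned. Of 34 chemokines 1 was present, CCL2, at 7.75, 5.25 and 3.73 TPM, and CCL3, CCL4, CCL5, CXCL8 and CXCL10 were listed at 0.

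Transcription factors were taken from 7 lists, in which 221 of 330 symbols were present (67.0%, against 51.7% of protein coding symbols) and 20 reached 100 TPM in each library. IRF8 stood above all others in every library, 2356, 2284 and 2796 TPM against 905, 901 and 919.7 TPM for YBX1, a cold shock domain protein that also binds RNA. HMGA1, an architectural chromatin protein, was at 619, 565 and 553 TPM and ATF4, the factor of the amino acid stress response, at 509, 525 and 559.8 TPM. The ranges of HMGA1 and ATF4 overlapped. TFDP1, the partner of E2F factors, MYBL2, which drives mitotic genes, and MAZ had means of 272, 258 and 254 TPM.

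TCF4 came eighth and overlapped with MYC, at 186, 190.4 and 224 TPM. CBFB, the partner of RUNX factors, was at 167, 181 and 178 TPM and ETS2 at 176, 173 and 167 TPM. MEF2D, the tumour suppressor RB1 and ELF1 had means of 143, 142 and 139 TPM, and from MEF2D down to E2F4, the last of the 20 most abundant factors, the ranges of neighbours overlapped. ATF5, USF1, CEBPZ, USF2 and E2F4 were also among these 20, with means of 122, 118, 118, 109 and 106 TPM.

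All 22 factors listed for plasmacytoid dendritic cells were present, with a median of 40.8 TPM, against 9.85 TPM over all listed factors, these 22 included. The list was chosen with earlier results of these data known, so this difference describes the list and tests nothing. Beside those given above they included IKZF1, at 87.3, 87.6 and 89.2 TPM, TCF3, a second E protein, at 77.6, 75.2 and 80.8 TPM, CBFA2T3, a corepressor, at 72.7, 68.6 and 68.2 TPM, and MYB, at 63.1, 70.1 and 72.8 TPM. IKZF3 was the lowest of them, at 1.35, 1.58 and 1.05 TPM. Of 3 E protein genes, TCF4 was above TCF3 in every library, and TCF12 had a mean of 47.1 TPM. The E protein inhibitors ID3 and ID1 had means of 27.8 and 5.13 TPM, and ID4 was listed at 0.

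Factors of other lineages were unevenly present. SPI1, the PU.1 factor of myeloid and B cells, was at 60.6, 61.3 and 72.4 TPM, and its range overlapped with that of RUNX2. GATA1, GATA2, CEBPA, CEBPE, EBF1, TCF7, TBX21, ETS1 and FOXO1 were listed at 0, and GATA3 had a mean of 0.00731 TPM. STAT6 was the highest STAT gene, at 104, 109 and 93.6 TPM, and STAT4 was listed at 0. Among early response genes FOS had a mean of 4.09 TPM, JUN of 0.497 TPM and EGR1 of 0.497 TPM.

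Signaling from receptors with tyrosine activation motifs had 20 of 25 symbols present (80%, against 51.7% of protein coding symbols). Beside FCER1G these were led by the adaptor GRB2, at 293, 293 and 292 TPM, and the phosphatase PTPN6, at 194, 179 and 247 TPM. The kinases LYN and SYK had means of 110.2 and 44.8 TPM, and PIK3AP1, an adaptor for phosphoinositide 3-kinase, of 148 TPM. CLEC4C signals through FCER1G, which was higher in each library, 496, 471 and 501 TPM against 58.99, 64.4 and 46.7 TPM. CD247, the T cell chain, was listed at 0 and CD79B had a mean of 0.0638 TPM.

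In the BCL2 family, which controls mitochondrial cell death, 13 of 17 symbols were present (76.5%, against 51.7% of protein coding symbols). The effector BAX was at 199, 181 and 179.8 TPM. The survival proteins BCL2, the target of venetoclax, and MCL1 were at 107, 125 and 150.1 TPM and 127, 132 and 121 TPM, and their ranges overlapped. For BCL2 replicate 3 was highest and replicate 1 lowest. BCL2L1, which encodes BCL-XL, had a mean of 14.3 TPM, and the sensitizer PMAIP1, or NOXA, of 90.9 TPM. BCL2A1, HRK and BCL2L10 stayed below 0.1 TPM on average, and BOK was listed at 0.

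Genes of DNA replication and cell division were abundant. Of 40 cell cycle symbols 36 were present (90%, against 51.7% of protein coding symbols), and the median of the list was 125 TPM. At 100 TPM or more in each library were 23 of the 40, against 7.26% of protein coding symbols. PCNA, the sliding clamp of replication, was at 551, 597 and 617 TPM, TYMS, thymidylate synthase, at 507, 526 and 524 TPM, and TOP2A at 341, 379.5 and 395 TPM. CCNB1 and MKI67, genes of dividing cells, had means of 274 and 126 TPM. The inhibitors CDKN2A, at 0.0682, 0.162 and 0.205 TPM, and CDKN2B, at 0.314, 0.257 and 0.262 TPM, were below 1 TPM, as was CCND2, with a mean of 0.00178 TPM, and CDKN1C was listed at 0. Among the D cyclins CCND3 had a mean of 54.7 TPM and CCND1 of 35.4 TPM.

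The 3 libraries were close to each other. Over 10896 symbols with a mean of at least 1 TPM, Pearson's r of log2(TPM + 1) across genes was 0.996 for replicates 1 and 2, 0.992 for 1 and 3 and 0.994 for 2 and 3. Genes are not independent replicates. The median coefficient of variation was 12.1% for symbols from 1 to 10 TPM, 7.15% from 10 to 100, 5.61% from 100 to 1000 and 4.14% above. The precision of a level thus grew with the level. No 2 libraries held identical columns.

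Replicate 3 stood apart most often. It lay above both other libraries by at least 1.5-fold in 160 symbols (1.47%) and below both in 103 (0.945%). The same counts were 28 above and 84 below for replicate 1, and 43 above and 35 below for replicate 2. At a mean of at least 10 TPM, 29 symbols were above and 16 below in replicate 3.

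The 6 largest folds upward in replicate 3, among symbols with a mean of at least 10 TPM, included the long noncoding RNA OLMALINC, at 25.6, 30.6 and 82.9 TPM, FAM69C, at 14.3, 11.1 and 37.1 TPM, and the troponin gene TNNT3, at 19.1, 21.4 and 45.4 TPM. RFLNB, SDHAF4 and IL1B were the other 3, with RFLNB at 37.6, 37.7 and 78.1 TPM and SDHAF4 at 63.3, 55.6 and 110.5 TPM. Downward, LYZ was at 72.7, 90.8 and 36.6 TPM and RGS1, a regulator of G protein signals, at 167, 168 and 87.02 TPM. GPR183, with the values given above, and the small RNAs SCARNA7 and SNORD48 were also among the 6 in that direction. LYZ is a member of the monocyte and macrophage list, whose summed level ran from 92.6 to 144 TPM over the libraries and whose defining markers CD163, VCAN and FCN1 were at 0. Of the other present members of that list, CD68 was at 41.6, 38.4 and 38.6 TPM and CEBPB at 13.4, 13.5 and 16.1 TPM. The cause of the LYZ difference was not tested.

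Replicate 1 carried more of the signal recognition particle RNAs. RN7SL2 was at 7575, 1868 and 1447 TPM and RN7SL1 at 5873, 1261 and 1014 TPM, which accounts for its larger share of small RNAs. LOC105376271 was at 62.0, 0 and 0 TPM. These symbols, like the libraries' depth, differ between replicates of 1 group, and the cause was not tested.

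**Figure D5:**
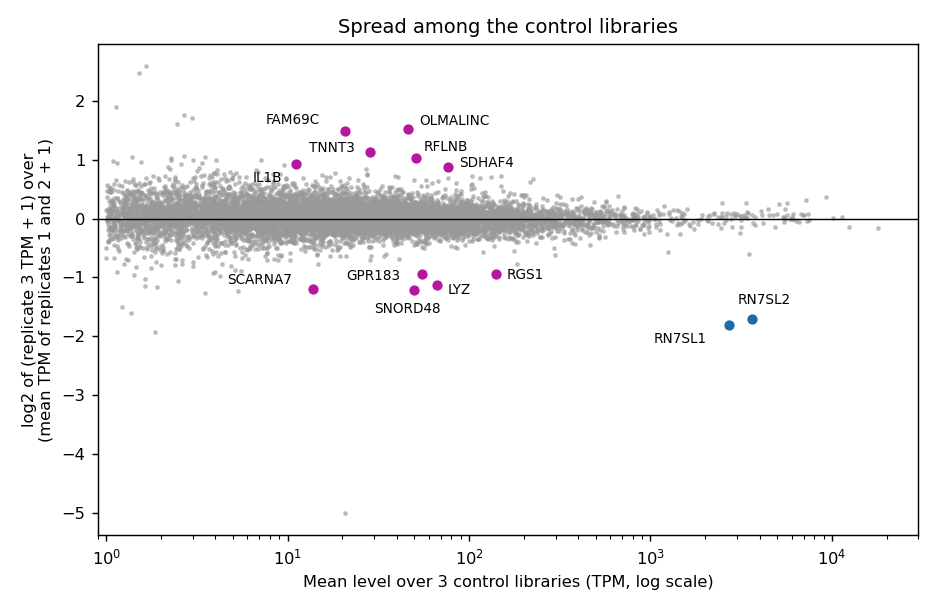
For each symbol with a mean of at least 1 TPM, log2 of the replicate 3 level plus 1 over the mean of replicates 1 and 2 plus 1, against its mean level (TPM, log scale); purple points are the symbols named in the text in which replicate 3 lay far from both others, blue points RN7SL1 and RN7SL2. Most of the 10896 symbols lie close to 0, and 263 lie beyond both other libraries by 1.5-fold.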

How the data were processed

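RNA of CAL-1 cells was sequenced in 9 libraries, of which the 3 NTC libraries were used; groups and replicate numbers come from the sample titles. The values are TPM by gene symbol as deposited by the authors in 1 table, each column summing to 1000000, and the build named in the submitters' processing notes is hg38. For the aligner, counter, annotation and strand setting nothing was given in the sources used here. The 6 knockdown columns were not used, and TPM was not changed before description. Members and gene lists were chosen with earlier results of these data known.

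Levels were summarised as mean and SD, ranked by mean, and called present at 1 TPM in all 3 libraries, with Python 3.11.15, numpy 2.4.6, pandas 2.3.3 and matplotlib 3.10.9; counts of this kind were tested on simulated data. No test was run, since 1 group has no comparison. Lists held 1129 entries, of which 1121 matched a row, some through RefSeq synonyms; 961 symbols of the table had no RefSeq match and so no gene type. Gene positions are from GENCODE 29 and promoter windows from RefSeq (GRCh38.p14). Relative depth came from the spacing of values under 0.3 TPM; no interval can be given without counts.

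Named genes are the 7 markers, the 30 most abundant symbols, up to 8 leading and the absent members of each described list, the 20 leading factors and surface genes, and up to 6 symbols per direction in which replicate 3 differed most. Genes named beyond this, among them KHSRP and SLC23A1 from the series' title, IGLL5, CCND1, the HLA genes and lower list members with a known role, were chosen after their values were seen. Alternatives were leaving out each replicate, medians, median-ratio rescaling, other thresholds and protein coding symbols alone. Some genes that this rule takes in are not reported here.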

Additional observations from a re-analysis of the deposited data

How the results depend on the processing

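Without replicate 1, 2 or 3 the present symbols numbered 10744 to 10775 (10699 with all), the top 100 symbols held 39.0% to 39.8% of TPM and the ribosomal protein genes 26.3% to 26.7%; the 39 plasmacytoid dendritic cell members and 38 other-lineage members did not change in number. With protein coding symbols alone the ribosomal protein share was 27.7% in place of 26.5%. From 5 TPM, 22 other-lineage members were present in place of 38, and 37 plasmacytoid dendritic cell members. Leaving out the symbols of the special regions and read-through partners, a choice made after seeing the data, gave 38 and 37. Replicate 3 lay beyond the others in 263 symbols, in 251 after median-ratio rescaling, in 49 at a fold of 2 and in 45 at a mean of at least 10 TPM; with replicate 1 or 2 in its place, also chosen afterwards, the counts were 112 and 78. For this count no value without a replicate can be had. Of 35 recomputed marker levels 34 moved by no more than 1 SD, those of IL3RA being 0 in every setting. The exception was TCL1A, at 839 TPM over protein coding symbols, against 802 TPM. Leaving out 1 of 3 libraries cannot move a mean by more than the SD of those 3, so that setting could show no such move. No paired analysis was possible because a single group was described and no result comes from a test. TPM keeps no read totals, so levels near 1 TPM, where the spread between libraries was largest, are the least certain, and a listed 0 has no stated limit.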

Other observations

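A few genes of the striated muscle sarcomere were abundant, while most were not. A list of 33 sarcomere genes, chosen after its leading members had been seen, had 8 present (24.2%, against 51.7% of protein coding symbols) and a median of 0.0319 TPM. Below 1 TPM in every library were 24 of the 33, 12 of them at 0, and 4 reached 100 TPM in each library. The tropomyosin gene TPM2 was at 676, 695 and 787 TPM, the fast skeletal troponin I gene TNNI2 at 475, 424 and 510.0 TPM and MYBPH, a myosin binding protein, at 369, 349 and 333 TPM. MYBPC2 was at 86.4, 85.4 and 105 TPM, TNNT1 at 40.2, 42.99 and 65.9 TPM and TNNT3 at 19.1, 21.4 and 45.4 TPM. Replicate 3 was highest for each of these except MYBPH. The muscle factor genes MYOD1 and MYOG, and DES, which encodes the muscle intermediate filament desmin, were listed at 0 in all 3 libraries. TPM3, which is also widely expressed outside muscle, was at 149, 151 and 144 TPM.

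Several genes of the HOXB cluster were measured at 10 TPM or more on average. HOXB4 was at 44.4, 43.01 and 45.1 TPM, HOXB7 at 41.7, 41.1 and 39.9 TPM, HOXB2 at 24.7, 22.8 and 20.6 TPM, HOXB6 at 11.9, 9.66 and 11.03 TPM and HOXB3 at 9.69, 10.9 and 10.8 TPM. HOXB5, HOXB8 and HOXB9 were below 0.2 TPM on average, and HOXA3, HOXA5, HOXA7, HOXA9 and HOXA10 were listed at 0. HOXA9 and HOXA10 are partners of a read-through symbol, with the limit given for such genes. TCL1B, the neighbour of TCL1A, was at 133, 125 and 129 TPM. These genes were chosen after their values were seen.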
